A study of Mus musculus with 4 samples.

Results

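Cytosolic ribosomal protein genes encode the proteins that join ribosomal RNA to form the large and small subunits of the ribosome outside mitochondria. Members were taken by symbol, as Rpl or Rps followed by digits with an optional a, l, x or y, together with Rplp0, Rplp1, Rplp2 and Rpsa, and without pseudogenes or the Rps6k kinases. The rule found 80 of the 19092 genes in the count table, 49 of the large subunit and 31 of the small subunit. Each was detected in the kept cells, with 113979 UMIs (unique molecular identifiers, which count captured RNA molecules once) between them.

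The series profiled dissociated mouse cortex at postnatal day 7 by Drop-seq, a droplet method that counts the 3′ ends of polyadenylated RNA in single cells. Control mice (WT, n = 2) carried the genotype Top1 f/f, and conditional knockout mice (cKO, n = 2) were Top1 f/f;NEX-cre, so both groups shared the floxed Top1 alleles and differed in the Cre. NEX-cre places Cre in the Neurod6 locus and deletes Top1, which encodes a DNA topoisomerase, from excitatory neurons of cortex and hippocampus, and the deletion is meant for that class. All samples were labelled Male and C67/Bl6, and the controls were littermates. Barcodes are prefixed WT1, WT2, KO2 or KO3, whereas the cKO mice are numbered 1 and 2, which leaves the mouse behind a cKO barcode unknown. The cKO cells were therefore pooled as 1 sample for genotype ratios, each cKO label is also given, and no test of genotype was made.

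Ribosomal proteins are needed in near equal numbers in each ribosome, and their mRNAs are among the most abundant in most cells. Many of these mRNAs start with a run of pyrimidines, the 5′ terminal oligopyrimidine (TOP) tract, through which mTOR signalling sets their translation.

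The kept cells, those with at most 10% of UMIs from mitochondrial mt- genes, numbered 397 in WT1, 287 in WT2, 370 in KO2 and 544 in KO3. Their UMIs summed to 2865812 in WT1, 1038595 in WT2, 1030810 in KO2 and 1987190 in KO3. Median depth was 2610 UMIs per cell in WT2, within 1 UMI of that in WT1, 1596 in KO2 and 2390.5 in KO3, so KO2 cells were the shallowest. Over the labels 22 kept cells held more than 20000 UMIs each, and the deepest, a WT1 cell gated on astrocyte markers, held 271066 UMIs or 9.46% of WT1.

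Cells joined a class by summed marker UMIs, with Neurod6 kept out of the gate because the Cre sits in it. The gate gave 39, 47, 17 and 74 excitatory neurons in WT1, WT2, KO2 and KO3, 27, 45, 39 and 107 inhibitory neurons, and 130, 56, 117 and 98 cells gated on astrocyte markers. The leading genes of the excitatory class over the other kept cells were Rorb and Neurod1. Those of the inhibitory class were Gad2, Gad1 and Vip, and those of the astrocyte gate were Aqp4, Slc1a3 and Mlc1. All of these but Rorb and Mlc1 were in the marker lists of the gate, so the gate itself favours their lead and the Aqp4 shares below. Neurod6 UMIs were seen in 76.9%, 74.5%, 76.5% and 66.2% of excitatory neurons, in 40.7%, 51.1%, 25.6% and 29.9% of inhibitory neurons, and in 59.2%, 51.8%, 30.8% and 37.8% of cells in the astrocyte gate. Neurod6 was thus counted in most excitatory neurons and also, at lower shares, in classes that should lack it, where median depth was lower. Aqp4, the astrocyte water channel, was seen in 34.6%, 42.9%, 32.5% and 45.9% of the astrocyte gate against 10.3%, 6.38%, 0% and 5.41% of excitatory neurons. The astrocyte gate of WT1 stood apart. Astrocyte markers made 0.435% of its UMIs against 1.03%, 0.674% and 0.877% in WT2, KO2 and KO3, with Fabp7 the most abundant of the list at 4403 UMIs, and inhibitory markers made 0.145% against 0.0726%, 0.0965% and 0.112%. Its mt- UMIs made 2.96% against 6.04%, 6.76% and 5.74%.

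Top1 itself served as a check of the labels. In excitatory neurons it stood at 612 and 508 CPM (UMIs per 1000000 UMIs) in WT1 and WT2 and at 32.6 and 90.6 CPM in KO2 and KO3. Both cKO labels lay below both WT mice, with a log2 ratio of -2.84 (95% counting interval -3.51 to -2.37). In inhibitory neurons Top1 was 664, 596, 411 and 428 CPM, again with both cKO labels below both WT mice, a log2 ratio of -0.56 (-0.87 to -0.27). The astrocyte gate had 333, 525, 273 and 487 CPM, where the groups overlapped. The sources used do not give the deleted exon, and 3′ UMIs may lie outside it.

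The share of all UMIs that came from ribosomal protein genes was lowest in excitatory neurons, higher in inhibitory neurons and highest in the astrocyte gate, in WT1, WT2, KO2 and KO3 alike. In excitatory neurons the share was 0.737% in WT1 (exact 95% binomial interval 0.702 to 0.772), 0.915% in WT2 (0.877 to 0.955), 0.964% in KO2 (0.902 to 1.03) and 1.001% in KO3 (0.965 to 1.04). In inhibitory neurons it was 0.972%, 1.17%, 1.53% and 1.14%. In the astrocyte gate it was 2.09%, 1.96%, 2.64% and 1.68%. The gap between excitatory neurons and the astrocyte gate was -1.35 percentage points in WT1, -1.04 in WT2, -1.68 in KO2 and -0.681 in KO3.

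**Figure D1:**
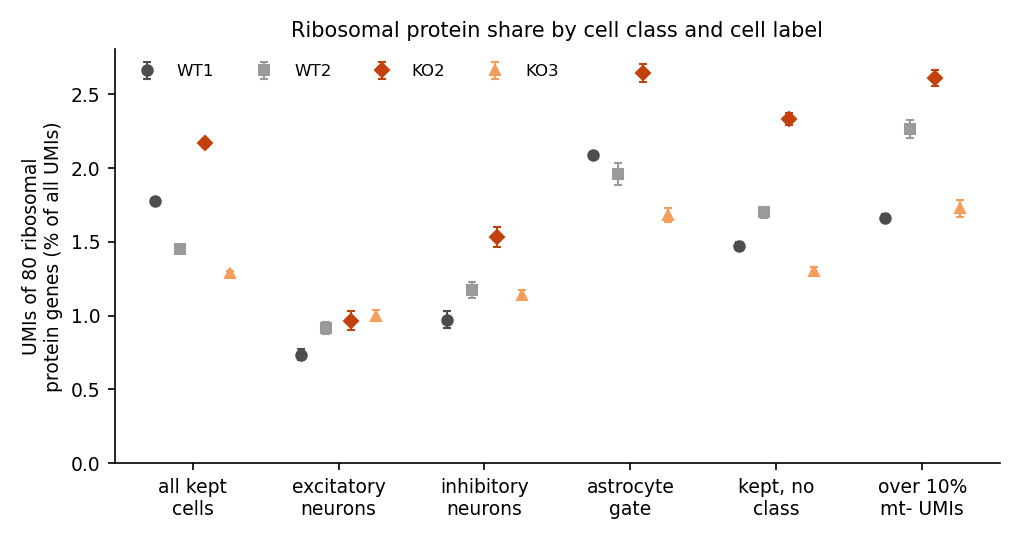
Percent of all UMIs (vertical axis) from the 80 ribosomal protein genes in each cell class (horizontal axis), with a point for each cell label and exact 95% binomial intervals. Excitatory neurons lie between 0.737% and 1.001%, and the astrocyte gate between 1.68% and 2.64%.

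Between genotypes the shares differed little beside the spread between labels. In excitatory neurons both cKO labels lay above both WT mice. Their mt- UMIs differed too, at 6.78% and 4.93% in WT1 and WT2 and 3.98% and 4.75% in KO2 and KO3, both cKO labels below both WT mice, and the part of RNA quality in the ribosomal protein share was not tested. The WT mean was 0.826% ± 0.126 (SD, n = 2) and pooled cKO stood at 0.992%, a difference of 0.166 percentage points that became 0.0768 without WT1 and 0.256 without WT2. Without Rps2 the 4 excitatory shares were 0.723%, 0.892%, 0.914% and 0.946%, in the same order. In inhibitory neurons the WT mean was 1.07% ± 0.142 (SD, n = 2) against 1.24%, and KO3 lay between the WT mice. In the astrocyte gate the WT mean was 2.03% ± 0.0928 (SD, n = 2) against 2.17%, with KO2 above and KO3 below both WT mice. The mt- UMIs of this gate were 2.96%, 6.04%, 6.76% and 5.74% in WT1, WT2, KO2 and KO3, and their part was not tested either. The astrocyte difference of 0.140 percentage points became 0.0744 without WT2, -0.344 without KO2, 0.618 without KO3 and -0.0325 without cells over 20000 UMIs. The inhibitory difference of 0.163 became 0.0623 without WT1, 0.264 without WT2, 0.0706 without KO2 and 0.461 without KO3. Over all kept cells the shares were 1.78%, 1.45%, 2.17% and 1.29%, so the cKO labels lay on either side of the WT mice, and the difference of -0.0237 became 0.139 without WT1, -0.186 without WT2, -0.326 without KO2 and 0.558 without KO3.

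Depth moved with the share. Over all kept cells, those with under 1500 UMIs had shares of 2.97%, 2.52%, 3.45% and 2.36% in WT1, WT2, KO2 and KO3, and those with 3000 to 6000 UMIs had 1.23%, 1.43%, 1.37% and 1.07%. The share was thus higher below 1500 UMIs than at 3000 to 6000 UMIs in each label. Cells under 1500 UMIs numbered 20, 15, 166 and 114. Excitatory neurons with 1500 to 3000 UMIs gave 1.25% in pooled WT and 1.14% in pooled cKO, the opposite order to the class as a whole. The pooled cKO cells in that bin were 1 of KO2 and 21 of KO3. Excitatory neurons with 6000 or more UMIs gave 0.643% in pooled WT and 0.846% in pooled cKO. At 3000 to 6000 UMIs the labels of excitatory neurons overlapped, at 0.794%, 1.095%, 1.09% and 0.994% in WT1, WT2, KO2 and KO3, with WT2 above both cKO labels. At 3000 to 6000 UMIs the astrocyte gate stood at 1.98% in pooled WT, from 27 WT1 and 8 WT2 cells. Inhibitory neurons of pooled WT stood at 1.02%, and both were above excitatory neurons. At 6000 or more UMIs excitatory neurons had 0.612%, 0.679%, 0.837% and 0.853% in WT1, WT2, KO2 and KO3, from 11, 13, 6 and 9 cells. Inhibitory neurons had 0.593%, 0.894%, 0.780% and 0.690% there, from 4, 8, 7 and 10 cells. The order of the neuron classes thus turned in WT1, KO2 and KO3, in few cells. The astrocyte gate had 2.04%, 0.996%, 1.09% and 0.936% at that depth, from 17, 3, 5 and 7 cells. Its gap to excitatory neurons was smaller in WT2, KO2 and KO3 than in WT1. The part of depth in the differences was not tested. Barcodes of all mt- shares were also binned. Those with over 5% and up to 7.5% mt- UMIs had ribosomal protein shares of 1.505%, 1.38%, 2.09% and 1.33%, and KO2 had the highest share of the labels in that bin and in each bin above it.

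**Figure D2:**
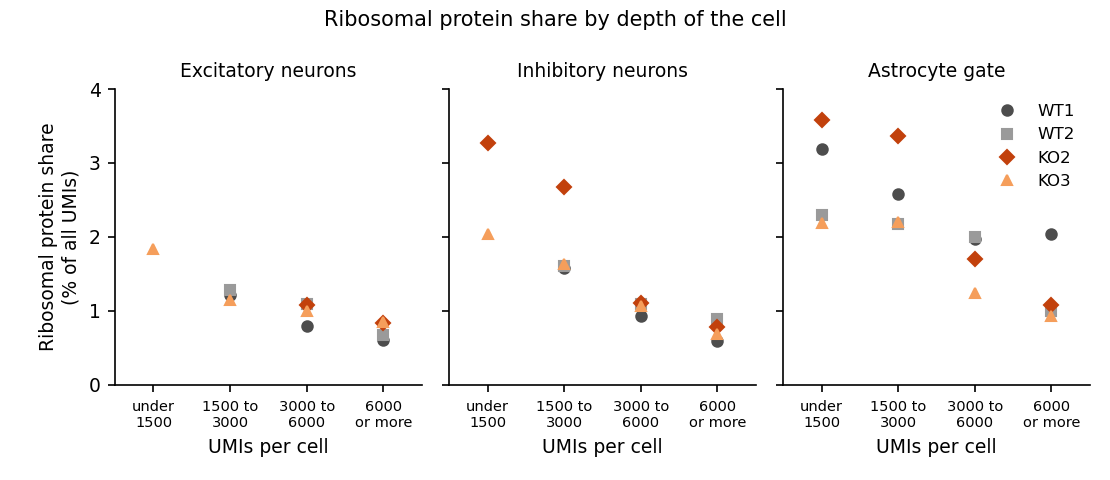
Percent of UMIs from ribosomal protein genes (vertical axis) by UMIs per cell (horizontal axis) in 3 classes, with a point for each cell label and bins of fewer than 3 cells not drawn. The points of most labels fall with depth, and WT1 in the astrocyte gate stays at 2.04% in cells with 6000 or more UMIs.

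Barcodes left out of the classes gave shares of the same size. Kept cells that met no gate had 1.47%, 1.70%, 2.33% and 1.30%, and barcodes over the mitochondrial limit had 1.66%, 2.26%, 2.61% and 1.73%. KO2 was the highest of the labels in both. The few microglia (4, 4, 3 and 10 cells) had 1.30%, 1.82%, 2.92% and 1.84%, with a WT mean of 1.56% ± 0.368 (SD, n = 2). Both cKO labels lay above both WT mice there, with KO3 close to WT2.

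Most of the ribosomal protein UMIs came from a small number of genes. The 11 most abundant members held 51.1% of them, 32 members had at least 1000 UMIs, and 19 had under 100. Of the most abundant, Rplp1 gave 6428 UMIs, Rpl13a 6205, Rpl4 5653 and Rps3 5430. At the low end Rps27 gave 14 UMIs, Rps6 17, Rpl28 28 and Rpl10 37, although each of these proteins is a standard part of the ribosome. UMIs were counted at 3′ ends, and tags from ends shared with other genes may not be assigned. In the last 400 bases of each member's transcript, windows of 50 bases were looked up in the transcripts of all other genes. The 15 members with no shared window had a median of 565 UMIs, 4 of them under 100, and the 11 members with over 90% of windows shared had a median of 71 UMIs, 7 of them under 100. The 21 members with up to 50% shared had a median of 1378 and the 33 with 50% to 90% a median of 704. The medians did not follow the shared share in order, and Rpl28 had 4.27% of its windows shared. Levels of members with shared ends are uncertain, the part of sharing in the low counts was not tested, and the counts are not a ranking of expression.

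Large and small subunits moved together across classes. In excitatory neurons the large subunit held 0.412%, 0.488%, 0.529% and 0.542% of UMIs in WT1, WT2, KO2 and KO3 and the small subunit 0.325%, 0.428%, 0.435% and 0.459%. The ratio of large to small was 1.27, 1.14, 1.22 and 1.18 there and 1.22, 1.07, 1.14 and 1.09 in inhibitory neurons, with the cKO labels between the WT mice in both. In the astrocyte gate it was 1.14, 1.18, 1.07 and 1.07, so both cKO labels lay below both WT mice. The WT mean was 1.16 ± 0.0313 (SD, n = 2) and the pooled cKO ratio 1.07, a difference of -0.0932.

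With all labels in, members as a group sat slightly above the other genes in the cKO ratios of each class and slightly below them over all kept cells, an order that turned in excitatory neurons, in the astrocyte gate and over all kept cells when some labels were left out. A gene was called where the pooled cKO over pooled WT ratio was at least 1.5-fold and the CPM of KO2 and KO3 both lay beyond both WT mice, among genes with at least 100 UMIs in the class. In excitatory neurons 26 of the 80 members had the UMIs, and 2 were called higher (Rps2 and Rpl15) against 2.54% of all genes, and 0 lower against 4.71%. Their median log2 ratio was 0.16 against -0.04 for all genes, and 20 of 26 ratios were above 0. Without WT1 the median less that of all genes went from 0.20 to -0.0494 and 1 of 23 members was called lower, against 6.02% of all genes. Without WT2 it was 0.38 and 5 of 21 members were called higher, against 4.99%, and without KO3, 3 of 19 were called higher and 2 lower, against 3.95% and 12.3%.

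In inhibitory neurons 30 of 80 members had the UMIs, and 2 were called higher (Rps2 and Rplp2) against 2.74% of all genes, and 0 lower against 2.06%. The median was 0.10 against -0.02. The median less that of all genes, 0.12, became 0.0313 without WT1, 0.28 without WT2, 0.0377 without KO2 and 0.47 without KO3. Without WT2, 5 of 25 members were called higher, against 8.05% of all genes, and without KO2, 1 of 25 was called higher and 1 lower, against 3% and 3.49%. Without KO3, 3 of 17 were called higher, against 3.34%. In the astrocyte gate 49 of 80 had the UMIs, with 4 called higher (Rps2, Rps18 and Rpl29 among them) against 7.5% of all genes and 0 lower against 9.15%, and a median of 0.10 against -0.09. KO2 and KO3 differed here. Without KO3, 19 of 49 members were called higher, against 9.29% of all genes, and the median less that of all genes went from 0.19 to 0.44, and without KO2, 9 of 49 were called lower, against 19.5%, and it went to -0.12. It was 0.11 without WT1. Leaving out WT2 gave 7 of 49 higher and 1 lower, against 16.5% and 18.6%, and leaving out WT1 gave 3 of 35 lower, against 4.93%. Over all kept cells 61 of 80 had the UMIs, 3 were called higher (Rps2, Rps18 and Rpl24) against 4.5% and 0 lower against 3.52%, with a median of -0.14 against -0.01. That median turned to 0.10 against -0.01 without WT1 and to 0.22 against -0.02 without KO3, and was -0.49 against -0.01 without KO2. Without WT1, 4 of 53 were called higher and 2 lower, against 3.87% and 3.29%, and without WT2, 5 of 58 higher and 5 lower, against 11.8% and 10%. Without KO2, 20 of 56 were lower, against 8.6%, and without KO3, 16 of 56 were higher, against 5.4%.

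**Figure D3:**
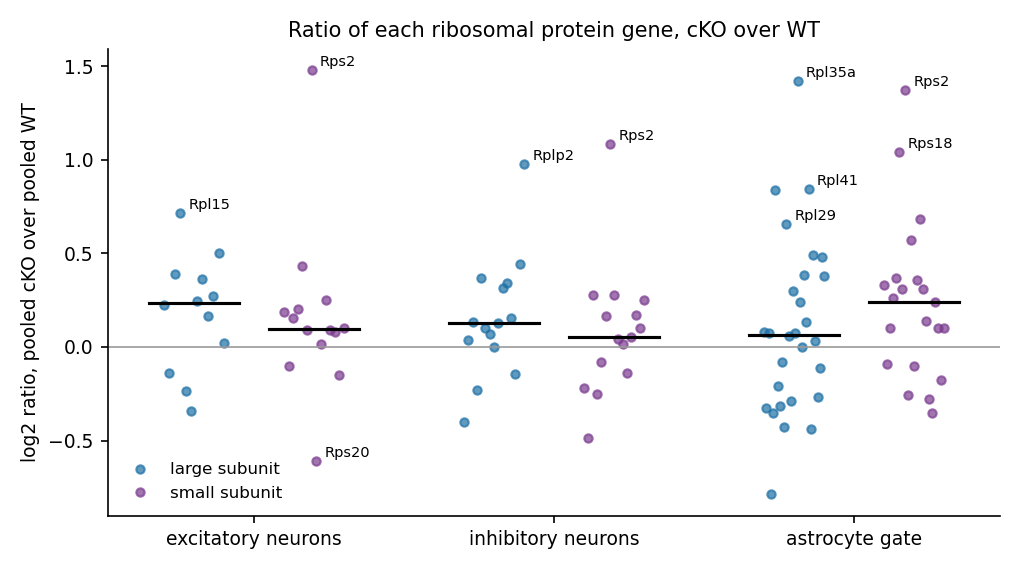
Ratio of cKO to WT on a log2 scale, from pooled cells (vertical axis), for each member with at least 100 UMIs in the class (horizontal axis), split into large and small subunit, with black lines at the medians and the main called members named beside Rpl35a, Rpl41 and Rps20, which were not called. Rps2 lies at 1.48, 1.08 and 1.37 in the 3 classes.

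Labels of the same genotype were also compared, 1 against 1, where only the 1.5-fold rule applies, so these counts cannot be set against the calls. Over all kept cells, 12 of 53 members were at least 1.5-fold lower in WT2 than in WT1 and 3 were higher, against 12.7% and 11.6% of all genes. Excitatory neurons had 3 of 15 higher and 0 lower in WT2, against 4.71% and 3.18% of all genes, inhibitory neurons 3 of 11 and 0, against 8.5% and 6.75%, and the astrocyte gate 7 and 7 of 48, against 15.5% and 26.1%. Between the cKO labels 32 of 51 members were at least 1.5-fold lower in KO3 than in KO2 and 1 was higher, against 5.15% and 4.52% of all genes, with a median of -0.83. The astrocyte gate had 21 of 32 lower and 0 higher, against 10.5% and 7.72% of all genes, and inhibitory neurons 6 of 22 and 0, against 3.47% and 8.54%. In excitatory neurons 0 of 14 were lower and 2 were higher, against 3.88% and 8.97%. KO2 cells were shallower than KO3 cells over all kept cells, in inhibitory neurons and in the astrocyte gate but deeper in excitatory neurons, and the part of depth in these differences was not tested.

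Ranks of cKO ratios here and below cover members with at least 100 UMIs in the class. Among large subunit genes, Rpl15 had the highest ratio of cKO to WT in excitatory neurons. It stood at 163 and 141 CPM in WT1 and WT2 and at 272 and 258 CPM in KO2 and KO3, a log2 ratio of 0.71 (0.28 to 1.19). The groups did not overlap. With Neurod6 in the gate 1 of 32 members was called higher, which was Rps2, so Rpl15 was not called in that alternative. Rpl15 had the lowest pooled ratio of the astrocyte gate instead, at 284, 115, 164 and 135 CPM, a log2 ratio of -0.79 in which both cKO labels lay between the WT mice. Against the mean of the WT mice Rpl15 was 0.75-fold in that gate, above Rpl27a at 0.58-fold and Rpl3 at 0.72-fold. In inhibitory neurons Rpl15 was 209, 220, 177 and 188 CPM, lower in both cKO labels.

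Rpl14 in excitatory neurons was 253, 299, 250.05 and 416 CPM (log2 ratio 0.39), with KO2 below both WT mice and KO3 above them. Rpl26, which sits near the exit of the peptide tunnel, was 180, 192, 217 and 131 CPM (-0.34), and Rpl22 was 227, 205, 120 and 211 CPM (-0.23). Rpl13a, best known for its release from the ribosome in interferon-treated myeloid cells, was 403, 448, 315 and 426 CPM (-0.14). All 4 of these genes had overlapping groups.

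WT1 gave 92.8% of the pooled WT UMIs of the astrocyte gate, so pooled ratios there mostly compare with WT1. By pooled UMIs Rpl35a had the highest ratio at 1.42 (1.02 to 1.87), from 55.9, 129, 234 and 83.1 CPM, but KO3 lay between the WT mice and the gene was not called. Against the mean of the WT mice Rpl35a was 1.72-fold in pooled cKO, below Rps2 at 2.56-fold and Rps18 at 2.17-fold. Of the 4 members called higher in this gate, 2 were also at least 1.5-fold over that mean, and Rpl29 was 1.49-fold. Rpl29 was 118 and 122 CPM in WT and 176 and 182 CPM in cKO, a log2 ratio of 0.66 (0.30 to 1.02), and its groups did not overlap. Without cells over 20000 UMIs 2 of 40 members were called higher, Rps2 and Rps18, so Rpl29 was not called in that alternative. The lowest pooled ratios beside Rpl15 were those of Rpl5, a carrier of 5S ribosomal RNA, at 125, 57.5, 74.2 and 94.97 CPM with overlapping groups, and of Rpl27a, at 105, 158, 85.9 and 67.3 CPM, where both cKO labels lay below both WT mice (log2 ratio -0.43, -0.97 to 0.07). Against the mean of the WT mice Rpl27a was the lowest at 0.58-fold, followed by Rpl3 at 0.72-fold and Rpl15 at 0.75-fold. By that measure Rpl5 was 0.92-fold and not among the lowest. Rpl13 had the lowest ratio among large subunit genes in inhibitory neurons, at 94.9, 191, 80.6 and 128 CPM, with a log2 ratio of -0.40 whose interval of -1.01 to 0.19 spans 0.

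Rplp0, Rplp1 and Rplp2 form the stalk of the large subunit, which recruits elongation factors. Rplp1 in excitatory neurons was 313 and 474 CPM in WT and 663 and 554 CPM in cKO, and in inhibitory neurons 389 and 613 CPM against 1000 and 641 CPM. Both cKO labels were above both WT mice in these 2 classes, with log2 ratios of 0.50 (0.22 to 0.79) and 0.44 (0.16 to 0.73), under the 1.5-fold needed for a call. Rplp1 in the astrocyte gate was 1048, 1330, 1887 and 954 CPM, with KO3 below both WT mice. Rplp2 was called in inhibitory neurons at 190, 89.3, 468 and 195 CPM, a log2 ratio of 0.98 (0.46 to 1.58), with KO3 close to WT1. Only Rps2 was called higher without KO2 (1 of 25 members) and with a mitochondrial limit of 5% (1 of 15), so Rplp2 was not called in either alternative. In excitatory neurons Rplp2 was 154, 201, 294 and 154 CPM, with a log2 ratio of 0.02. Rplp0 was 308, 333, 435 and 393 CPM in excitatory neurons (0.27, -0.06 to 0.61) and 532, 512, 597 and 438 CPM in inhibitory neurons (-0.14), where the groups overlapped.

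Among small subunit genes other than Rps2, Rps15a in excitatory neurons was 133, 128, 196 and 181 CPM, a log2 ratio of 0.43 (-0.06 to 0.96). Both cKO labels were above both WT mice, within counting error of no difference. Rps20 had the lowest ratio there, at 150, 277, 120 and 151 CPM, a log2 ratio of -0.61 (-1.13 to -0.14), with WT2 alone high and KO3 level with WT1. Rps15 had one of the lower ratios among small subunit genes in inhibitory neurons, at 199, 256, 266 and 178 CPM, a log2 ratio of -0.25 with overlapping groups.

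Rps18, a protein of the small subunit head, was called in the astrocyte gate and over all kept cells. Rps18 in the astrocyte gate was 108 and 86.3 CPM in WT and 266 and 154 CPM in cKO, a log2 ratio of 1.04 (0.70 to 1.39), with no overlap. The ratio was 0.60 without KO2 and 1.36 without KO3. Over all kept cells it was 94.9, 78.0, 261 and 146 CPM, a log2 ratio of 1.01, with 0.67 without KO2 and 1.51 without KO3. In neurons Rps18 had too few UMIs for the rule, with 14, 4, 6 and 35 UMIs in excitatory and 2, 10, 23 and 43 in inhibitory neurons. These gave 59.9, 17.1, 65.2 and 117 CPM in excitatory and 19.0, 59.6, 185 and 108 CPM in inhibitory neurons. Both cKO labels lay above both WT mice in each class, from few UMIs. Rps18 kept its call in each of 13 alternatives in the astrocyte gate and 14 over all cells. Other class gates leave the sums over all cells unchanged, and a lower UMI minimum cannot drop a gene that already passed. Those alternatives therefore could not remove the call.

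Rpsa, the small subunit protein also known as the laminin receptor, gave 386 UMIs in all and met the UMI minimum in the astrocyte gate but in neither neuron class. It was 56.5, 43.1, 70.3 and 43.5 CPM in the astrocyte gate, with overlapping groups and a log2 ratio of 0.10 (-0.54 to 0.71).

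Rps2 is a protein at the mRNA entry of the small subunit. Among members with at least 100 UMIs it had the highest cKO ratio in both neuron classes and over all kept cells. In the astrocyte gate it came after Rpl35a by pooled UMIs and first against the mean of the WT mice. It was singled out with its values known, so its levels are a description. In excitatory neurons it was 133 CPM in WT1 (95% Poisson interval 90.2 to 188), 231 in WT2 (173 to 301), 500.1 in KO2 (366 to 667) and 544 in KO3 (463 to 634). Both cKO labels lay above both WT mice, whose mean was 182 CPM ± 69.1 (SD, n = 2), with a log2 ratio of 1.48 (1.13 to 1.88). In inhibitory neurons Rps2 was 256, 280, 532 and 603 CPM, a log2 ratio of 1.08 (0.73 to 1.48), against a WT mean of 268 CPM ± 16.7 (SD, n = 2). The astrocyte gate had 379, 352, 1024 and 843 CPM, a log2 ratio of 1.37 (1.21 to 1.55), against a WT mean of 365 CPM ± 18.7 (SD, n = 2). The groups did not overlap in any of the 3 classes, and the intervals of WT2 and KO2 did not meet in any of them.

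The same separation was present outside these classes. Kept cells that met no gate had 357, 375, 854 and 705 CPM of Rps2, and barcodes over the mitochondrial limit had 417, 375, 999.9 and 984 CPM. Microglia had 158, 352, 603 and 818 CPM from 3, 3, 3 and 20 UMIs, and the intervals of the WT mice and KO2 overlapped widely. Rps2 took 1.80%, 2.52%, 5.19% and 5.43% of the ribosomal protein UMIs of excitatory neurons in WT1, WT2, KO2 and KO3. In WT the order of levels was excitatory neurons, inhibitory neurons, then the astrocyte gate in each mouse.

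**Figure D4:**
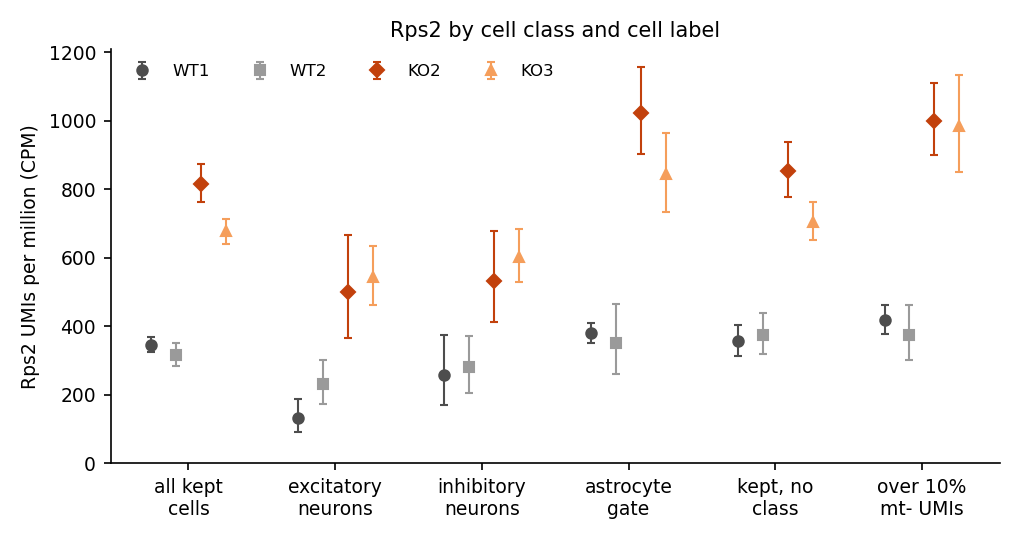
Rps2 CPM (vertical axis) over all kept cells, in the 3 compared classes, in kept cells of no class and in barcodes over the mitochondrial limit (horizontal axis), with a point for each cell label and exact 95% Poisson intervals. In these groups WT1 and WT2 lie between 133 and 417 CPM, and KO2 and KO3 between 500.1 and 1024 CPM.

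The Rps2 call was present in each alternative that gave a value, 13 in excitatory neurons and 14 in inhibitory neurons and in the astrocyte gate. The lower UMI minimum among these could not drop Rps2, which already passed. The excitatory log2 ratio ran from 1.15 without WT1 to 1.88 without WT2. Rps2 (17:24718116-24721929, plus strand, GRCm38) and Rps18 (17:33951999-33956001, minus strand) both lie on chromosome 17. Genes around them were read as well. Of 32 tested genes within 1000000 bases of Rps2, 4 were called higher over all kept cells (Cacna1h, E4f1 and Spsb3 among them), against 4.5% of all genes, with a median of 0.00, and in excitatory neurons 0 of 5 were called. In inhibitory neurons 1 of 4 was called lower (Syngr3), against 2.06% of all genes, with a median of 0.29. Of 19 in the astrocyte gate, 1 was called higher and 1 lower, against 7.5% and 9.15%. Of 30 around Rps18 over all kept cells, 1 was called higher and 1 lower, against 4.5% and 3.52%, with a median of -0.12, and 0 of 4 were called in each neuron class. The lower gene was H2-K1, at a log2 ratio of -2.24 and at -1.72 in the astrocyte gate, where 2 of 16 were lower, against 9.15%. Of all tested genes on chromosome 17, 6 of 55 were called higher in excitatory neurons (10.9%, the largest share of any chromosome that holds a member, against 2.54% of all genes), 2 of 57 in inhibitory neurons (3.51% against 2.74%) and 14 of 193 in the astrocyte gate (7.25% against 7.5%). Those called lower were 3, 1 and 24, against 4.71%, 2.06% and 9.15% of all genes. Rps2 itself is among the 6, 2 and 14 genes called higher, and Rps18 is also among the 14. The part of position was not tested. Transcript ends of both are close to copies elsewhere in the genome, since 84.3% of the Rps2 windows occur in transcripts of 62 other genes and 84.6% of the Rps18 windows in 11. The Rps2 and Rps18 counts are uncertain in this respect. The listed copies Rps2-ps10, Rps2-ps6 and Rps18-ps3 had 1, 0 and 2 UMIs over all kept cells, and the part of assignment between copies was not tested. Members with unshared ends, among them Rps3, Rpl4, Rpl13a and Rps20, had ratios between -0.61 and 0.36 in excitatory neurons.

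Paralog pairs were read with the same caution. Rps27l gave 532 UMIs against 14 for Rps27, and was 116, 86.3, 168 and 103 CPM in the astrocyte gate. Rpl3, Rpl10 and Rpl39 gave 855, 37 and 1186 UMIs, while their paralogs Rpl3l, Rpl10l and Rpl39l gave 2, 4 and 10. Rps4x gave 447 UMIs and its listed relative Rps4y2, outside the rule, gave 544. The symbol Rps4l did not occur in the count table. Just outside the rule, Gnb2l1 (Rack1) gave 3306 UMIs, Rps3a1 2216, Rpl22l1 537, Rpl36al 514, Rpl7l1 384 and Fau 92, and 25 pseudogenes gave 1368 between them.

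Class differences could be tested within the WT mice, using edgeR on UMIs summed per mouse and class. In WT excitatory neurons against the astrocyte gate, 50 of 80 members passed the filter. In these, 33 fell below the astrocyte gate at an adjusted p under 0.05, against 9.48% of all genes, and 0 were higher, against 7.89%. At an unadjusted p under 0.05, 41 were lower and 0 higher, against 17.5% and 15.2% of all genes, and DESeq2 called 13 lower and 0 higher, against 1.59% and 1.35% of all genes. The median log2 ratio was -1.32 against -0.01 for all genes, and 49 of 50 ratios were negative. Both subunits took part, with 20 of 29 large and 13 of 21 small subunit genes lower. Without a filter on low counts 19 of 79 were lower, against 1.97% of all genes, and with a mitochondrial limit of 5%, 21 of 34, against 7.67%. That limit left 10 WT1 excitatory neurons and 13 WT2 cells in the astrocyte gate, under the minimum of 20 cells.

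Rpl3, which lies next to the peptidyl transferase centre, had the smallest adjusted p. It was 29.97 and 89.7 CPM in excitatory neurons of WT1 and WT2 and 148 and 288 CPM in the astrocyte gate, a log2 ratio of -1.95 (SE 0.419, adjusted p = 0.00357). Rpl32 was 188 and 286 against 701 and 769 CPM (-1.66, SE 0.372, adjusted p = 0.00475), and Rplp1 was 313 and 474 against 1048 and 1330 CPM (-1.61, SE 0.363, adjusted p = 0.00475). Rps15 was 120 and 128 against 371 and 446 CPM (-1.70, SE 0.391, adjusted p = 0.00557). Rps27l was 25.7 and 12.8 against 116 and 86.3 CPM (-2.36, SE 0.545, adjusted p = 0.00582). Some of these values rest on few UMIs, with 6 and 3 against 208 and 12 for Rps27l and 7 and 21 against 265 and 40 for Rpl3. All of Rpl3, Rpl32, Rplp1, Rps15 and Rps27l were lower in excitatory neurons of both mice.

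Of the most abundant members, Rpl13a had a log2 ratio of -1.46 (adjusted p = 0.00911), and Rps3 and Rpl4 -1.07 and -1.06 (adjusted p = 0.0391 and 0.0401). The stalk genes Rplp0 and Rplp2 were lower by -1.44 and -1.22 (adjusted p = 0.00981 and 0.0283). Rps2 did not pass, at -1.07 (adjusted p = 0.0558), nor did Rpsa at -0.42 (adjusted p = 0.638), Rpl15 at -0.34 (adjusted p = 0.605) or Rpl24, the single member above 0, at 0.41 (adjusted p = 0.664). The excitatory neurons were also deeper per cell by median, at 4812 and 3953 UMIs against 2219 and 1987. The test used summed UMIs, however, and a few deep cells weigh on the astrocyte gate of WT1. That gate summed to 1787766 UMIs in 130 cells, against 233536 UMIs in 39 excitatory neurons of WT1. Of the 130 cells, 17 had 6000 or more UMIs and the deepest had 271066. The part of depth was not tested.

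Excitatory against inhibitory neurons gave 0 members higher and 0 lower by edgeR among 41 of 80 tested, against 2.91% and 2.84% of all genes. At an unadjusted p under 0.05, 7 were lower and 0 higher, against 7.84% and 8.9% of all genes. DESeq2 called 0 lower and 0 higher, against 0.488% and 0.302%, with 0 at an unadjusted p under 0.05, against 1.93% and 1.46%. The median log2 ratio was -0.34 against -0.00 for all genes, and 34 of 41 were negative. Rplp0 had the smallest adjusted p, 0.0651, at 308 and 333 against 532 and 512 CPM (log2 ratio -0.67, SE 0.235). It was followed by Rps15 (-0.85, adjusted p = 0.0887), Rps26 (-0.61, adjusted p = 0.1697), Rps19 (-0.61, adjusted p = 0.198) and Rpl30 (-1.64, adjusted p = 0.205), each lower in both mice. Rpl30 was 42.8 and 4.27 against 75.9 and 59.6 CPM. With the pooled cKO cells as a further block 3 of 45 members were lower, against 4.09% of all genes, and with them in place of WT1, 1 of 50, against 2.76%.

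Inhibitory neurons against the astrocyte gate gave 0 higher and 0 lower by edgeR among 42 of 80 tested, against 0.628% and 0.655% of all genes. At an unadjusted p under 0.05, 23 were lower and 0 higher, against 10.1% and 11.3% of all genes. DESeq2 called 0 lower and 0 higher, against 0.655% and 0.6%, with 10 lower and 0 higher at an unadjusted p under 0.05, against 3.52% and 5.73%. The median was -1.001 against -0.01 for all genes. The smallest adjusted p was that of Rplp2 (-1.63, adjusted p = 0.111), followed by Rplp1 (-1.29, adjusted p = 0.119), Rpl26 (-1.30, adjusted p = 0.119), Rps20 (-1.40, adjusted p = 0.136) and Rpl3 (-1.26, adjusted p = 0.141). All 5 were lower in inhibitory neurons of both mice. With the pooled cKO cells as a further block, 29 of 53 members were lower, against 4.96% of all genes. With pooled cKO in place of WT1 it was 39 of 55, against 8.14%, and in place of WT2, 6 of 58, against 2.27%. The comparisons share the same cells, and whether the class differences differ from each other was not tested.

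Other genes of translation were read from lists. The elongation factors had 0 of 4 tested members called in excitatory neurons, 0 of 4 in inhibitory neurons and 0 of 6 in the astrocyte gate, in cKO over WT. Eef1a1, which brings aminoacyl-tRNA to the ribosome, was 514, 482, 522 and 530 CPM in excitatory neurons, a log2 ratio of 0.03. Eef1b2 and Eef2, the next in UMIs, were not called either. Other TOP mRNAs had 0 of 7, 0 of 6 and 0 of 11 called. Pabpc1, the poly(A) binding protein and with Gnb2l1 and Npm1 the richest in UMIs of these, was 758, 943, 728 and 1164 CPM in excitatory neurons, with overlapping groups. Initiation factors had 1 of 23 called in the astrocyte gate, Eif4g1, at 133, 230.0, 273 and 237 CPM, against 7.5% of all genes called higher. KO3 lay close to WT2 for Eif4g1, which was 1.41-fold against the mean of the WT mice.

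Of ribosome biogenesis genes, 0 of 7 were called in each neuron class, and in the astrocyte gate Taf1d was higher (42.0, 43.1, 97.7 and 67.3 CPM) and Nhp2 lower (164, 137, 113 and 83.1 CPM) of 15, against 7.5% and 9.15% of all genes. Regulators of TOP translation had 0 of 2 called in each class and 1 of 8 called higher over all kept cells, against 4.5% of all genes. This was Tsc1, at 21.6, 46.2, 49.5 and 46.8 CPM, where WT2 lay close to both cKO labels and WT1 gave 73.4% of the pooled WT UMIs. Mitochondrial ribosomal proteins had 4 of 68 lower in the astrocyte gate (Mrpl14, Mrpl20, Mrpl28 and Mrps30), and nuclear respiratory chain genes 6 of 69 (Atp5f1, Atp5g3, Ndufs7, Ndufv1, Ndufv2 and Uqcrfs1), against 9.15% of all genes. Nuclear respiratory chain genes had 1 of 40 higher in excitatory neurons (Ndufb9) and 1 of 52 in inhibitory neurons (Atp5j2), against 2.54% and 2.74% of all genes. Mitotic genes had 0 of 2 called in the astrocyte gate and none with the UMIs in neurons, and 3 of 6 (Mki67, Cenpf and Hmgb2) were higher over all kept cells, against 4.5% of all genes. Nuclear RNA had 3 of 4 higher in the astrocyte gate, against 7.5% of all genes, 1 of 3 in inhibitory neurons, against 2.74%, 0 of 3 in excitatory neurons, against 2.54%, and 3 of 5 over all kept cells, against 4.5%. Malat1 was 828, 2688, 3657 and 6715 CPM in the astrocyte gate, 2306, 1328, 3217 and 2487 CPM in inhibitory neurons (log2 ratio 0.62) and 1066, 1084, 1718 and 1601 CPM in excitatory neurons (0.54), higher in both cKO labels in each. The summed share in the astrocyte gate was 0.145%, 0.362%, 0.563% and 0.829%. The part of nuclear RNA in the ribosomal protein ratios was not tested.

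In WT excitatory neurons against the astrocyte gate, the other lists also held genes that passed the edgeR test lower, against 9.48% of all genes. The nuclear respiratory chain had 51 of 68 lower with a median of -1.37, mitochondrial ribosomal proteins 17 of 60 with -1.06, initiation factors 4 of 22 with -0.22, other TOP mRNAs 3 of 11 with -0.88 (Gnb2l1, Naca and Eif3f), and elongation factors 1 of 6 with -0.58 (Eef1b2). Ribosome biogenesis had 0 of 14 lower with a median of 0.18. Whether the lists differ from the ribosomal protein genes was not tested.

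Start regions were searched for the TOP tract because members were lower together in excitatory neurons. RefSeq start regions (GRCm38.p6) were matched for 60 of the 80 members. The tract searched was a C, with neither C nor T just before it, followed by at least 4 C or T. It started within 10 bases of the annotated start, on the strand of the gene only. It was found in 30 of 72 member start regions (41.7%) and in 7508 of 32851 start regions of all genes (22.9%). Per gene, 19 of 37 large and 11 of 23 small subunit genes held it, against 7029 of 27025 of all genes (26.0%). A match describes these letters and no more. Below are the bases from 30 before the start to 25 from it for 3 members, Rpl13a as an abundant member with an unshared 3′ end that was lower in excitatory neurons, and Rps18 and Rps2 as members called in cKO, chosen after their values were seen, with the tract in capitals. Rpl13a lies at chr7:45128721-45128775 on the minus strand, Rps18 at chr17:33955641-33955695 on the minus strand, and Rps2 at chr17:24720033-24720087 on the plus strand.
Rpl13a: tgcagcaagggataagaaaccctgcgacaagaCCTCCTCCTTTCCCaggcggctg
Rps18: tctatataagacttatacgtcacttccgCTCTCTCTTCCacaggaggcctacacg
Rps2: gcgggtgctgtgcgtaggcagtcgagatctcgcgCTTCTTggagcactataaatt
The tract runs to 14 bases in Rpl13a, 11 in Rps18 and 6 in Rps2. Rps3 and Rpl4, also abundant members with unshared 3′ ends that were lower in excitatory neurons, did not hold it. Of the 60 matched members 30 held it, so the 3 shown do not stand for the group.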

How the data were processed

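The deposited table holds raw UMI counts per gene and cell barcode, which the authors made from Drop-seq reads. The submitters' processing notes name STAR and the builds mm10 and hg19. Columns of per-sample values not used: 0. Of 2413 barcodes, 1598 with at most 10% mt- UMIs and at least 300 genes were kept, and 815 were over the limit. 1 barcode sequence occurred under 2 labels. No doublet caller was run, and cells over 20000 UMIs were left out as an alternative.

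A cell joined a class with at least 3 UMIs from at least 2 genes of its marker list and at least 2 times the sum of every other list. Classes needed at least 20 cells per label, but KO2 excitatory neurons, with 17 cells, were kept as a departure. UMIs were summed per label and class. Genotype ratios of pooled cells used TMM factors, filterByExpr, a prior count of 2 and at least 100 UMIs. Class comparisons used the edgeR 4.0.16 quasi-likelihood test in R 4.3.3, with mouse as a block in 4 libraries and Benjamini-Hochberg adjustment over all genes, and DESeq2 1.42.0 as an alternative. Shares have exact Clopper-Pearson intervals. All intervals cover counting error only. Gene positions came from GENCODE annotation of GRCm38, the same assembly as mm10, in which 80 members matched. The pipeline was tested on simulated data.

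Alternatives were mitochondrial limits of 5% and none, a gate of 5 UMIs, Neurod6 in the gate, thinning to 1000 UMIs per cell, a wider member list, other scaling, filters, prior counts and blocks, and leaving out each library. Replacing a WT mouse by pooled cKO cells, the ratios within a genotype, the ratios to the mean CPM of the WT mice, the neighbouring genes and the depth bins were added after seeing the data.

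Named genes were, by rule, Rps2, Top1, the stalk genes and Rpsa, the 5 members with the most UMIs, the 5 highest and 5 lowest ratios in excitatory neurons and the 3 highest and 3 lowest in the other classes, the 5 smallest adjusted p in each class comparison, fixed paralog pairs, and of each other list the genes called in cKO over WT or else the 3 with the most UMIs, while class comparisons of the longest lists are given as counts. Rps18, Rpl29 and the least abundant members were added after their values were seen. Some genes that met the rule are not reported here. Members and lists were chosen with earlier results of these data known.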

Additional observations from a re-analysis of the deposited data

Results flagged for a closer look

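A signal appeared in barcodes that the class comparisons did not use. Rps2 stood at 994 CPM in pooled cKO barcodes over the mitochondrial limit against 408 CPM in pooled WT barcodes of the same kind. In kept cells that met no class gate, pooled cKO had 759 CPM of Rps2 against 364 CPM in pooled WT. Both values lay above the WT level in the same set of barcodes. Genotype and library preparation cannot be told apart in these samples, because each label was prepared from cells of a single genotype.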

How the results depend on the processing

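No paired analysis was possible because the labels pair no WT mouse with a cKO mouse. Of 334 alternative values of the main results, 265 stayed within 1 SD of the WT mice or within 1.5 times the count, and 69 did not. The sign turned in 6 alternatives for the share difference over all cells, 2 for that of the astrocyte gate, 5 for the subunit ratio difference of excitatory and 2 of inhibitory neurons, and 1, 1 and 2 for the medians of excitatory neurons, inhibitory neurons and the astrocyte gate. The cause of each move was not tested. Differences in share are in percentage points.

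With a mitochondrial limit of 5%, the share difference over all cells was -0.256, the inhibitory subunit ratio difference -0.201, the median of members less that of all genes 0.38 in excitatory and 0.35 in inhibitory neurons, inhibitory members higher 1 of 15 (3.95% of all genes), astrocyte-gate members lower 2 of 47 (13.3%), the excitatory less inhibitory share -0.0924, and excitatory members below the astrocyte gate 21 of 34 (7.67% of all genes). This limit left 10 WT1 and 12 KO2 excitatory neurons, 4 WT1, 18 WT2 and 10 KO2 inhibitory neurons and 13 WT2 cells in the astrocyte gate, all under the minimum of 20 cells. With no limit, the astrocyte-gate subunit ratio difference was -0.0552, the excitatory less inhibitory share -0.324, members lower 6 of 43 in excitatory against inhibitory neurons (3.67% of all genes) and 5 of 49 in inhibitory neurons against the astrocyte gate (3.01%). Without cells over 20000 UMIs, the astrocyte-gate share difference was -0.0325, its median -0.11, its members higher 2 of 40 (3.36% of all genes), excitatory members lower 1 of 26 (4.72%), and inhibitory members below the astrocyte gate 9 of 44 (3.58% of all genes). Thinned to 1000 UMIs, share differences were 0.338 over all cells, 0.425 in inhibitory neurons and 0.371 in the astrocyte gate, the inhibitory median 0.41, members higher 0 of 1, 4 of 12 and 2 of 29 in excitatory neurons, inhibitory neurons and the astrocyte gate (1.74%, 4.53% and 2.25% of all genes), the excitatory less inhibitory share -0.276, and inhibitory members below the astrocyte gate 1 of 31 (1.48% of all genes). The mean of single-cell shares gave 0.320 over all cells, 0.375 in inhibitory neurons, 0.331 in the astrocyte gate and -0.308 for excitatory less inhibitory neurons. Without mt- UMIs in the denominator the last was -0.263. Neurod6 in the gate gave 1 of 32 excitatory members higher (2.78% of all genes) and -0.187 for excitatory less inhibitory neurons. A minimum of 20 UMIs gave 5 of 51 higher and 1 lower in excitatory neurons (8.57% and 7.12% of all genes), 4 of 52 and 1 in inhibitory neurons (9.82% and 5.47%), and 7 of 70 higher in the astrocyte gate (9.74%). In the class tests, no filter gave 19 of 79 excitatory and 1 of 79 inhibitory members below the astrocyte gate (1.97% and 0.677% of all genes), DESeq2 gave 13 of 50 excitatory (1.59%), and a gate of 5 UMIs 2 of 42 inhibitory (2.31%). With 3 blocks, 3 of 45 members were lower in excitatory than inhibitory neurons (4.09%) and 29 of 53 in inhibitory neurons than in the astrocyte gate (4.96%).

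Leaving out each label in turn, share differences ranged from -0.326 to 0.558 over all cells, 0.0768 to 0.256 in excitatory neurons, 0.0623 to 0.461 in inhibitory neurons and -0.344 to 0.618 in the astrocyte gate. Medians ranged from -0.0494 to 0.38 in excitatory neurons, 0.0313 to 0.47 in inhibitory neurons and -0.12 to 0.44 in the astrocyte gate. Members higher ranged from 2 to 5, 1 to 5 and 3 to 19 in these classes, and members lower from 0 to 2, 0 to 1 and 0 to 9. With the pooled cKO cells as the other block, members lower ranged from 0 to 1 in excitatory against inhibitory neurons and 6 to 39 in inhibitory neurons against the astrocyte gate.

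The excitatory class of KO2 holds 17 cells and 91983 UMIs, the fewest of any label in the 3 compared classes. A gate of 5 UMIs left 11.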
